A study of Homo sapiens with 6 samples.

Results

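The proteasome genes measured here were 45 of the 60780 rows of the gene table. They were the rows with an Ensembl identifier and a Gene Ontology annotation whose symbol begins with PSMA to PSMG followed by a number. PSMB8 and PSMB9, the inducible subunits of the immunoproteasome, were left out by name. The set held 16 genes of the 20S core, 17 genes of the 19S cap, and 12 genes of activators, an inhibitor and assembly factors. The table's pathway column listed 39 of the 45 genes under the proteasome. PSMA8 matched by symbol, lacked a Gene Ontology annotation and had 0 counts in all 6 libraries.

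RNA was sequenced from LX-2, a long-established line of human hepatic stellate cells (the retinoid-storing pericytes of the liver), after 24 h of culture in conditioned medium. The medium was taken from HCT116, a human line of colorectal carcinoma. The HCT116 cells carried either a lentiviral empty vector (Vector-CM, n = 3) or lentiviral FGFBP1 (FGFBP1-CM, n = 3). FGFBP1 is a secreted carrier of fibroblast growth factors. The labels name no construct in the LX-2 cells themselves. FGFBP1 was at most 0.245 counts per 1e6 counts of the library (CPM) in these libraries, and FAP, the readout of the study, had 1.28 to 2.22 CPM in Vector-CM and 27.5 to 46.6 in FGFBP1-CM. No label says whether the 3 libraries of a group came from separate cultures or separate batches of medium, so p-values measure the spread between these libraries, which may be technical. Of 15 stellate and mesenchymal markers, 13 had a mean above 1 CPM, and LRAT, the enzyme that makes stored retinyl esters, had 0 counts in all 6 libraries.

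The proteasome is the protease that degrades proteins tagged with ubiquitin. Its 20S core is a barrel of 4 stacked rings, in which alpha subunits form the gates and beta subunits carry the cutting sites. The 19S cap binds ubiquitin chains, removes them, unfolds the substrate with a ring of ATPases and feeds it into the barrel. Other caps (PA28 and PA200) can take the place of the 19S cap, and dedicated chaperones assemble the rings. When proteasome activity falls short, the transcription factor NFE2L1 raises the genes of the core and the cap together through antioxidant response elements in their promoters.

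Total counts ran from 14003780 to 18508113 per library. The 45 genes together took 0.465% to 0.486% of the counts in the Vector-CM libraries and 0.498% to 0.578% in the FGFBP1-CM libraries, and the highest share was that of FGFBP1-CM replicate 1. This library stood apart. It lay farthest out on the first principal component of all genes, and it was the highest of the 6 libraries for 34 of the 44 proteasome genes tested (77.3%), against 29.5% of the 16707 genes tested. Without it, the fold change on the log2 scale turned or shrank by over 1.5 times in 26 of the 44 genes (10 of the core, 10 of the cap and 6 accessory genes) and grew by over 1.5 times in 4 (PSMB3, PSMB10, PSMD8 and PSMG3), and for the genes described below the value without it is given where it moved this far. The summed level of the stellate and mesenchymal markers was 3260 to 3497 CPM in Vector-CM and 2526 to 3056 in FGFBP1-CM. The summed level of 12 hepatocyte markers, of which 4 had a mean above 1 CPM, was 39.4 to 40.6 and 17.9 to 27.4 CPM. Sums of colorectal epithelium markers overlapped (220 to 243 and 209 to 226 CPM), as did those of endothelium and leukocyte markers. The part of these differences between libraries in the results below was not tested.

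No proteasome gene passed an adjusted p of 0.05 in edgeR's quasi-likelihood test (44 tested, lowest adjusted p = 0.0568), where 0.12% of all genes tested passed. At an unadjusted p under 0.05, 12 of the 44 were higher in FGFBP1-CM (27.3%, against 11.1% of all genes tested) and 1 was lower, PSME1 (against 10.7% of all genes). The libraries of the groups did not overlap for 17 genes. FGFBP1-CM was wholly above Vector-CM for 14 of them (31.8%, against 12.8% of all genes tested) and wholly below for 3, PSMA6, PSMD9 and PSMG4 (against 13.2%). The median log2 fold change over the 44 genes was 0.11, a difference of 7.76%, and the median over all genes tested was 0.0032. In a bulk sample, more RNA per cell and more cells of one kind cannot be told apart.

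The 3 classes differed in their medians and in how many of their genes were higher at an unadjusted p under 0.05. The 19S cap had a median log2 fold change of 0.16, with 15 of 17 genes above 0 (against 50.7% of all genes tested) and 8 (47.1%) higher at an unadjusted p under 0.05. The 20S core had a median of 0.06, with 11 of 15 above 0 and 1 (6.67%) higher at an unadjusted p under 0.05, a share below the 11.1% of all genes tested. The 12 accessory genes had a median of 0.05, with 7 above 0 and 3 higher at that p, and they held both the second highest and the lowest value of the set. Of the core genes below 0, PSMB3 shares no coding bases with another gene on the same strand. PSMA2, PSMA6 and PSMB10 share over 50%, as does PSMA1, which is above 0. No cap gene shares any on the same strand. Fold changes of genes that share bases this way are uncertain, which limits the comparison of the core with the cap. Among the tested core genes that share none, only PSMB3 was below 0. The share of genes above 0 therefore does not set the core apart from the cap. No difference between the classes was tested, because genes of a class are not replicates.

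**Figure D1:**
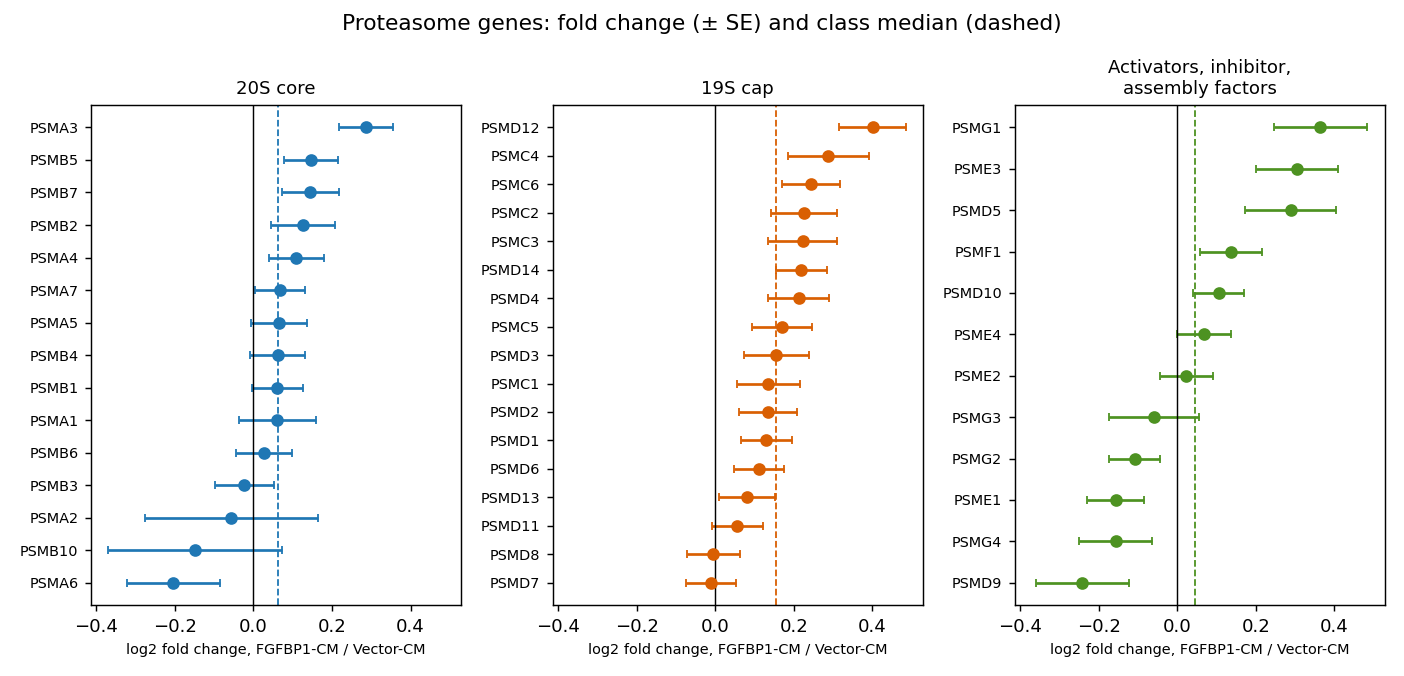
Each point is the log2 fold change of 1 gene, FGFBP1-CM over Vector-CM, from edgeR with its standard error as a bar, and the dashed line marks the class median. All but 2 of the 17 cap genes lie to the right of 0, while the accessory genes spread from -0.24 (PSMD9) to 0.36 (PSMG1).

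Without FGFBP1-CM replicate 1, the median was 0.09 for the cap, 0.03 for the core and 0.02 for the accessory genes. The fold change kept its sign in 41 of the 44 genes. In that fit 6 of the 44 genes were higher at an unadjusted p under 0.05 (13.6%, against 7.73% of all genes higher at that p and 14.6% in either direction), in place of 12 with all libraries, and 0 were lower. FGFBP1-CM was wholly above Vector-CM for 15 genes (34.1%, against 15.8% of all genes with these 5 libraries). Log2 fold changes went down with gene GC content (Spearman correlation -0.21 over the genes tested with a GC value, -0.28 over the 44 genes). After correction for gene GC content and length the medians were 0.14 for the cap, 0.03 for the core and 0.01 for the accessory genes. Over the 44 genes the median was 0.06, against -0.01 over all genes tested. PSMD12 was then at 0.32, PSMA3 at 0.22 and PSMC6 at 0.17, in place of 0.40, 0.29 and 0.24, whereas PSMC4 stayed at 0.29. In this setting 9 genes (20.5%, against 11.0% of all genes) lay wholly above Vector-CM, in place of 14 (31.8%, against 12.8%).

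**Figure D2:**
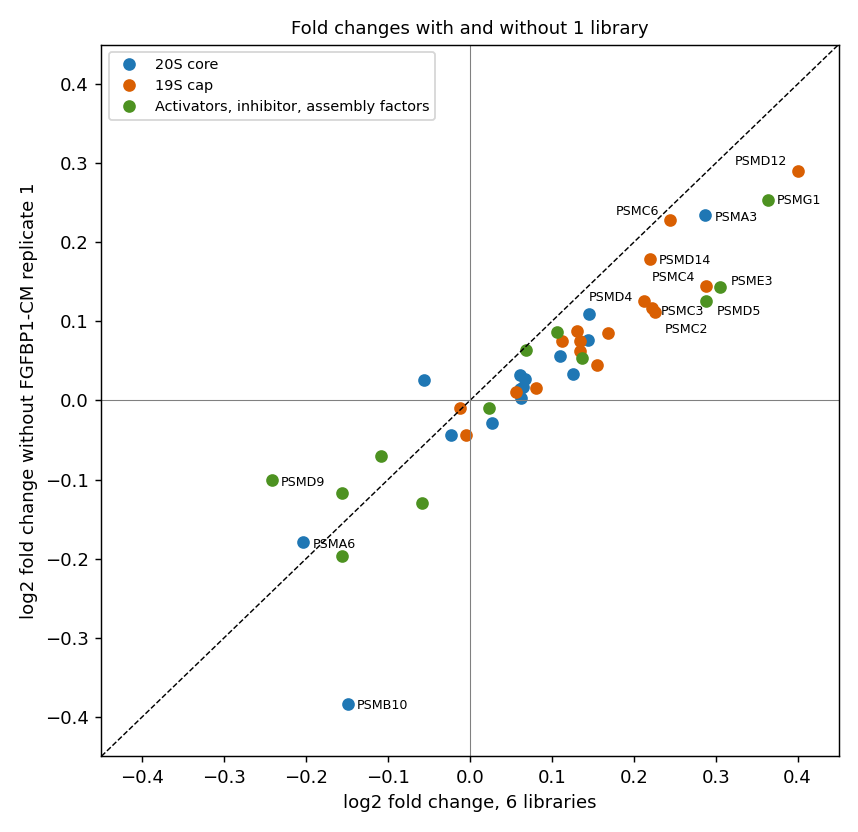
Log2 fold changes of the 44 genes from all 6 libraries (x axis) and without FGFBP1-CM replicate 1 (y axis), with the line of equality dashed. Most genes above 0 lie under the line, and PSMD12, PSMG1, PSMA3 and PSMC6 are the highest on the y axis.

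The 19S cap contains a ring of 6 ATPases, and all 6 genes were above 0, with log2 fold changes from 0.13 (PSMC1) to 0.29 (PSMC4). PSMC4 (ENSG00000013275, chr19:39971005-39981441, GRCh38) had 66.9, 76.97 and 71.7 CPM in the Vector-CM libraries and 104, 75.2 and 83.1 CPM in the FGFBP1-CM libraries. FGFBP1-CM replicate 1 was far above the other 5 libraries, replicate 2 lay inside the range of Vector-CM, and the groups overlapped. The log2 fold change was 0.29 ± 0.10 (SE, adjusted p = 0.141) with all libraries and 0.14 without that library.

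PSMC6 (chr14:52707172-52728587) was more even. It had 108, 93.2 and 101 CPM in Vector-CM and 122, 111 and 125 in FGFBP1-CM. Every FGFBP1-CM library was above every Vector-CM library, and the highest was replicate 3. The log2 fold change was 0.24 ± 0.07 (SE, adjusted p = 0.0988), and 0.23 without FGFBP1-CM replicate 1. The other ATPase genes had log2 fold changes of 0.23 (PSMC2), 0.22 (PSMC3), 0.17 (PSMC5) and 0.13 (PSMC1), with adjusted p from 0.15 to 0.35 (edgeR). Without FGFBP1-CM replicate 1 all 4 were lower, at 0.11, 0.12, 0.09 and 0.06. PSMC2 and PSMC5 had groups that did not overlap. For PSMC1, 47.7% of the coding bases are shared with a gene on the opposite strand, NRDE2, and the sources do not say whether counting used strand.

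Of the 11 cap genes that are not ATPases, PSMD12 had the highest value of the whole set. PSMD12 (Rpn5, ENSG00000197170, chr17:67337916-67366627), a scaffold subunit of the lid, had 108, 109.5 and 106 CPM in the Vector-CM libraries, and 163, 127 and 137 CPM in the FGFBP1-CM libraries. The 3 Vector-CM libraries lay close together, and all 3 FGFBP1-CM libraries were above them. The means were 108 ± 1.75 and 142 ± 19.01 CPM (SD, n = 3 each), a difference of 32.0% (log2 fold change 0.40 ± 0.08, SE, adjusted p = 0.0568 in edgeR). Without FGFBP1-CM replicate 1 the log2 fold change was 0.29 (adjusted p = 0.0548).

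PSMD14 (Rpn11, chr2:161308038-161411717), the metalloprotease that cuts ubiquitin chains off the substrate, had 74.2, 76.3 and 75.1 CPM in Vector-CM and 92.5, 84.9 and 85.1 in FGFBP1-CM. The groups were apart, with replicates 2 and 3 of FGFBP1-CM almost equal. Its log2 fold change was 0.22 ± 0.06 (SE, adjusted p = 0.0955), and 0.18 without FGFBP1-CM replicate 1. PSMD4 (Rpn10), a ubiquitin receptor, had 103 to 114 CPM in Vector-CM and 117 to 140.1 in FGFBP1-CM, also apart (log2 fold change 0.21, adjusted p = 0.149, and 0.13 without FGFBP1-CM replicate 1).

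The remaining lid and base genes were closer to 0. The base scaffolds PSMD1 and PSMD2 had log2 fold changes of 0.13 and 0.13, and PSMD3, PSMD6, PSMD13 and PSMD11 of 0.16, 0.11, 0.08 and 0.06. Without FGFBP1-CM replicate 1, PSMD2 was at 0.08, PSMD3 at 0.04, PSMD13 at 0.02 and PSMD11 at 0.01. PSMD11 (Rpn6), a lid subunit, had 278, 297 and 291 CPM in Vector-CM and 319, 289 and 290.4 in FGFBP1-CM, with only replicate 1 above the range of Vector-CM. The lowest were PSMD8 and PSMD7. PSMD7 (Rpn8), the partner of PSMD14 in the deubiquitinating pair, had 64.1, 67.9 and 66.8 CPM in Vector-CM and 65.7, 65.8 and 65.6 in FGFBP1-CM. The FGFBP1-CM libraries lay inside the range of Vector-CM, and the log2 fold change was -0.01 ± 0.06 (SE). PSMD8 (Rpn12), also of the lid, had 118, 129.6 and 127 CPM in Vector-CM and 131.5, 119 and 122 in FGFBP1-CM, again overlapping (log2 fold change -0.0046 ± 0.07, SE, and -0.04 without FGFBP1-CM replicate 1). Both genes were above 0 with library size as the only scaling (0.02 and 0.03), where the median of all genes tested was 0.04. For PSMD7, 28.4% of the coding bases are shared with a transcript on the opposite strand.

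**Figure D3:**
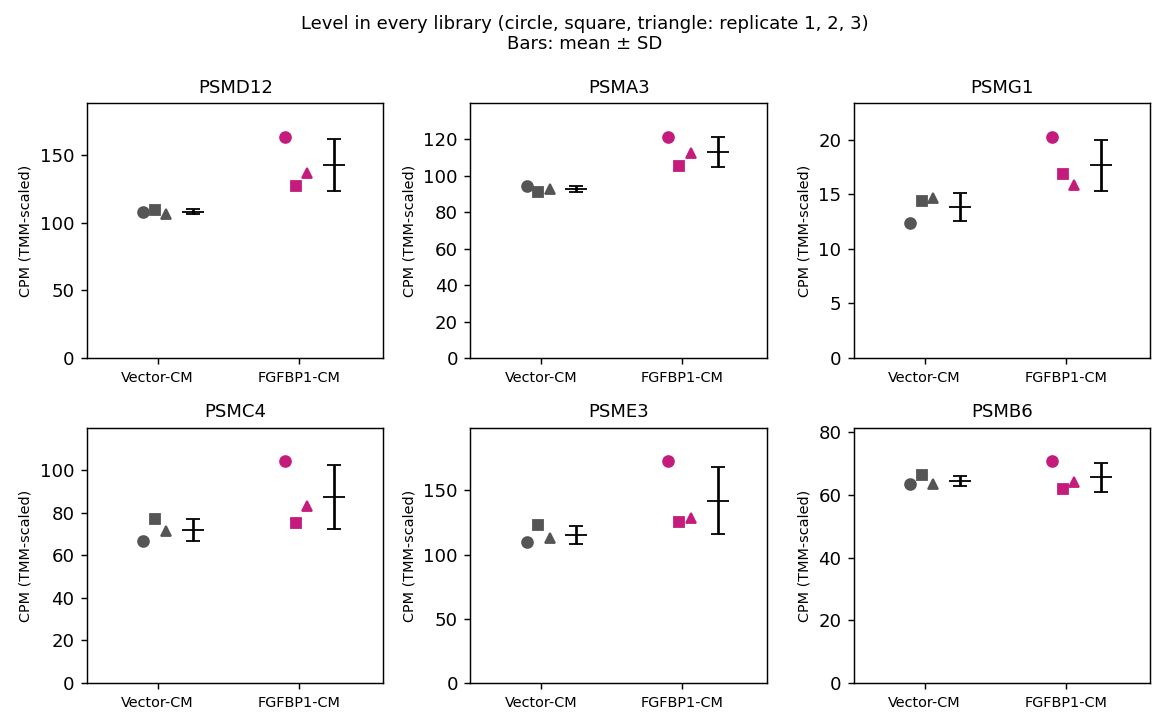
Level of 6 proteasome genes in every library as TMM-scaled CPM (y axes from 0), with replicates 1, 2 and 3 as circle, square and triangle and the mean ± SD beside them. The FGFBP1-CM libraries lie above all Vector-CM libraries for PSMD12, PSMA3, PSMG1 and PSME3, and the groups overlap for PSMC4 and PSMB6.

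In the 20S core, PSMA3 (ENSG00000100567, chr14:58244831-58272012), an alpha ring subunit, was the one gene at an unadjusted p under 0.05. It had 94.1, 90.9 and 92.8 CPM in Vector-CM and 121, 105 and 112 in FGFBP1-CM. The groups did not overlap, and the means were 92.6 ± 1.62 and 113.0 ± 8.20 CPM (SD, n = 3 each), a difference of 22.0%. The log2 fold change was 0.29 ± 0.07 (SE, adjusted p = 0.0658), and 0.23 without FGFBP1-CM replicate 1. The antisense row PSMA3-AS1 held 4420 counts, 43.6% of the 10133 of PSMA3, and in GENCODE release 29 the exons of PSMA3 share no bases with those of another gene.

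The catalytic subunits were nearer to 0. PSMB5 carries the chymotrypsin-like site, and had 81.5, 81.7 and 89.3 CPM in Vector-CM and 98.0, 88.2 and 92.8 in FGFBP1-CM. A single Vector-CM library reached into the range of FGFBP1-CM, and the log2 fold change was 0.15 ± 0.07 (SE, adjusted p = 0.237). PSMB7, with the trypsin-like site, had 140.3, 153 and 150.3 CPM in Vector-CM and 179, 154 and 158 in FGFBP1-CM. Its groups were apart by a narrow margin, and the log2 fold change of 0.14 ± 0.07 (SE, adjusted p = 0.262) was 0.08 without FGFBP1-CM replicate 1. PSMB6, with the caspase-like site, had 63.5, 66.3 and 63.6 CPM in Vector-CM and 70.7, 62.0 and 64.1 in FGFBP1-CM. All Vector-CM libraries lay inside the range of FGFBP1-CM, whose replicate 1 was above them and replicate 2 below them. The log2 fold change was 0.03 ± 0.07 (SE), and the sign turned to -0.03 without FGFBP1-CM replicate 1.

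The structural core genes PSMA1, PSMA4, PSMA5, PSMA7, PSMB1, PSMB2 and PSMB4 had log2 fold changes between 0.06 and 0.13, and PSMB3 of -0.02. Without FGFBP1-CM replicate 1 the first 7 lay between 0.0025 (PSMB4) and 0.06 (PSMA4), and PSMB3 was at -0.04. None of these 8 was at an unadjusted p under 0.05. PSMB11, a catalytic subunit made in the thymus, had at most 2 counts in a library, under the floor of 3 counts, and was not tested.

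No inducible subunit was higher at an unadjusted p under 0.05. PSMB10, which takes the place of PSMB7 in the immunoproteasome, had 2.62, 2.75 and 3.17 CPM in Vector-CM and 3.27, 2.38 and 1.96 in FGFBP1-CM. FGFBP1-CM held both the highest and the lowest library, and the log2 fold change was -0.15 ± 0.22 (SE), and -0.38 without FGFBP1-CM replicate 1. PSMB8 and PSMB9, its partners outside the set, had 22.0 to 26.2 and 39.9 to 43.3 CPM in Vector-CM and 22.8 to 25.5 and 35.1 to 39.1 in FGFBP1-CM (log2 fold changes 0.03 and -0.15, adjusted p = 0.894 and 0.264 in edgeR). Per length, the ratio of PSMB5 to PSMB8 in FPKM was 7.91 ± 0.78 in Vector-CM and 8.57 ± 0.61 in FGFBP1-CM, and that of PSMB6 to PSMB9 was 3.57 ± 0.09 and 4.04 ± 0.53 (SD, n = 3 each). The ratio of PSMB7 to PSMB10 was 47.5 ± 3.87 in Vector-CM and 60.5 ± 11.9 in FGFBP1-CM. PSMB10 had 32 to 62 counts per library and shares 58.3% of its coding bases with another gene on the same strand. The size of this last ratio is therefore uncertain. All 3 ratios overlapped between the groups.

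**Figure D4:**
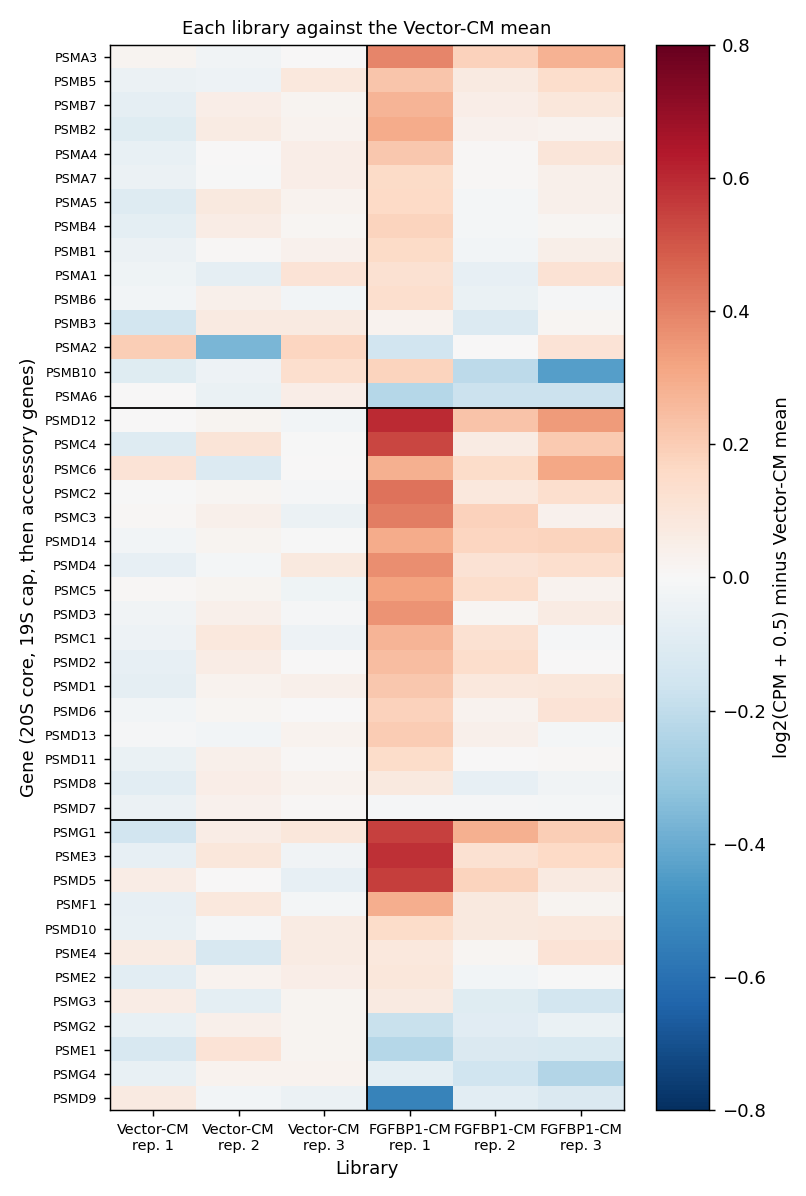
Rows are the 44 tested genes and columns the 6 libraries, with colour giving log2(CPM + 0.5) minus the mean of the 3 Vector-CM libraries. The column of FGFBP1-CM replicate 1 is the reddest, and PSMA6, PSMG2, PSME1, PSMG4 and PSMD9 are blue in all 3 FGFBP1-CM columns.

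Medians were also taken library by library. The median deviation of the cap genes from their Vector-CM mean was 0.28, 0.08 and 0.07 on the log2 scale in FGFBP1-CM replicates 1, 2 and 3, and -0.03, 0.03 and 0.0023 in the Vector-CM replicates. For the core genes it was 0.16, -0.02 and 0.04 in FGFBP1-CM and -0.05, 0.0047 and 0.05 in Vector-CM. All 3 FGFBP1-CM libraries were thus above the 3 Vector-CM libraries for the cap, and only replicate 1 was for the core. For the accessory genes it was 0.09, -0.0026 and 0.01 in FGFBP1-CM and -0.06, 0.03 and 0.02 in Vector-CM, so that again only replicate 1 was above all of Vector-CM. In FGFBP1-CM replicate 2 the accessory genes were above the core genes, and in the other two FGFBP1-CM libraries below them.

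Among the activators, PSME1 and PSME2 form the PA28 cap of the immunoproteasome, PSME3 forms the nuclear PA28 gamma, and PSME4 is PA200. PSME3 (chr17:42824385-42843758) had 109.9, 123 and 113 CPM in Vector-CM and 173, 125.5 and 128 in FGFBP1-CM. The groups were apart, but replicate 1 held most of the difference, and the log2 fold change of 0.31 ± 0.11 (SE, adjusted p = 0.128) was 0.14 without it. PSME1 went the other way, with 135, 159 and 150.2 CPM in Vector-CM and 126, 136.1 and 136.0 in FGFBP1-CM. A single Vector-CM library lay within the FGFBP1-CM range (log2 fold change -0.16 ± 0.07, SE, adjusted p = 0.228). PSME2 (0.02), PSME4 (0.07) and PSMF1, the inhibitor PI31 (0.14), had log2 fold changes at adjusted p of 0.332 or more (edgeR), and without FGFBP1-CM replicate 1 PSME2 was at -0.0090 and PSMF1 at 0.05.

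The 7 assembly factors were split. PSMG1 (chr21:39174769-39183851), which with PSMG2 forms the chaperone pair that starts the alpha ring, had 12.3, 14.4 and 14.7 CPM in Vector-CM and 20.3, 16.9 and 15.8 in FGFBP1-CM. The groups were apart, and the log2 fold change was 0.36 ± 0.12 (SE, adjusted p = 0.116), or 0.25 without FGFBP1-CM replicate 1. Its partner PSMG2 had a log2 fold change of -0.11 ± 0.07 (SE, and -0.07 without that library), and 88.4 to 94.8 CPM in Vector-CM against 81.4 to 88.8 CPM in FGFBP1-CM.

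PSMG3 and PSMG4 form the other chaperone pair of the alpha ring. PSMG4 had 18.1, 19.2 and 19.2 CPM in Vector-CM and 17.8, 16.8 and 16.0 in FGFBP1-CM, with every FGFBP1-CM library lower (log2 fold change -0.16 ± 0.09, SE, adjusted p = 0.347). PSMG3 was at -0.06, and at -0.13 without FGFBP1-CM replicate 1.

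PSMD5, PSMD9 and PSMD10 are the chaperones of the ATPase ring, and they did not share a direction. PSMD5 had 27.0, 25.9 and 24.7 CPM in Vector-CM and 38.2, 29.3 and 27.2 in FGFBP1-CM, apart by a narrow margin (log2 fold change 0.29 ± 0.11, SE, adjusted p = 0.172, and 0.13 without FGFBP1-CM replicate 1). PSMD9 had 22.5, 21.0 and 20.6 CPM in Vector-CM and 14.6, 20.1 and 19.7 in FGFBP1-CM. All FGFBP1-CM libraries were lower, replicate 1 by far the most, and the log2 fold change of -0.24 ± 0.12 (SE, adjusted p = 0.256) was -0.10 without it. PSMD10 (gankyrin) was at 0.11.

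The promoters of 3 genes with high values and of the lowest gene are shown because antioxidant response elements and CCAAT boxes are described control elements of proteasome genes. These are not the 3 highest genes. PSMG1, PSME3 and PSMC4 lay above PSMA3 in fold change and are not shown, and PSMC4 held none of the motifs searched. RefSeq gives a promoter (GRCh38.p14) for 39 of the 45 genes, all but PSMA7, PSMB1, PSMB6, PSMB7, PSMD4 and PSMG3. The sequences run 5′ to 3′ on the strand of the gene and end where either RefSeq or GENCODE release 29 places the first transcribed base, whichever comes first. Capitals mark the motifs searched.
PSMD12 (chr17:67366628-67366827, minus strand): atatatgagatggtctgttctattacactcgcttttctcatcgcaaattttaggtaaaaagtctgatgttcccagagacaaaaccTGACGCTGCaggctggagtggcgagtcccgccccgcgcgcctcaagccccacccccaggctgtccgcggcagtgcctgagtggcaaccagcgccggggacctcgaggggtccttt
PSMA3 (chr14:58244593-58244830, plus strand): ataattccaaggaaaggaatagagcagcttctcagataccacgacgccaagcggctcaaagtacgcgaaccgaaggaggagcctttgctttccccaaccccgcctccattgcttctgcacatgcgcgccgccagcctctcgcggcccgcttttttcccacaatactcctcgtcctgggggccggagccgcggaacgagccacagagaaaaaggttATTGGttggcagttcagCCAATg
PSMD5 (chr9:120842985-120843172, minus strand): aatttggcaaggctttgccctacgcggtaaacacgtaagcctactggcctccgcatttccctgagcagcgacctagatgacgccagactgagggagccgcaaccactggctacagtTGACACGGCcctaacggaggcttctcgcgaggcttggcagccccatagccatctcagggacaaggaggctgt
PSMD9 (chr12:121888540-121888730, plus strand): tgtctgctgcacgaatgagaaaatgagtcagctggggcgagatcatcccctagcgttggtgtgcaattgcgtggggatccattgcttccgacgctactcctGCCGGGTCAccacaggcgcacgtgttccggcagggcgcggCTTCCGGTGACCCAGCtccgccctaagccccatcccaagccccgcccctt

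Searched on both strands of the 250 bases before each RefSeq start were the antioxidant response element core (TGACNNNGC), the CCAAT box (CCAAT), the ETS core (CCGGAAG), the cyclic AMP response element (TGACGTCA) and the TATA box (TATAAA). The first 4 letters of the antioxidant response element core and of the cyclic AMP response element are the same. The antioxidant response element core was in 10 of the 39 promoters (25.6%) and in 11.0% of 27305 promoters of all genes. Of these 10, 7 were among the 11 accessory genes with a promoter, 2 among the 16 cap genes and 1 among the 12 core genes. The CCAAT box was in 17 (43.6%, against 33.0%), the ETS core in 9 (23.1%, against 8.82%) and the TATA box in 4 (10.3%, against 11.1%). The cyclic AMP response element was in 0 of the 39 promoters, against 1.77%.

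The 10 genes with the antioxidant response element core did not share a direction. Their log2 fold changes were 0.40 (PSMD12), 0.36 (PSMG1), 0.29 (PSMD5), 0.16 (PSMD3), 0.07 (PSME4), 0.02 (PSME2), -0.02 (PSMB3), -0.11 (PSMG2), -0.16 (PSME1) and -0.24 (PSMD9). PSMD9, the lowest gene of the set, holds the core on both strands, as seen in its sequence above. The 2 matches begin 149 and 102 bases before the RefSeq start, and the last 59 bases before that start are not printed. PSMA3, the highest gene of the 20S core, holds none and has 2 CCAAT boxes on opposite strands. They begin 35 and 18 bases before the RefSeq start, and the last 12 bases before that start are not printed. A match of letters does not show that a factor binds there.

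Some genes of the core were measured at levels far under those of their partners. In FPKM, fragments per kilobase of gene and per 1e6 mapped, 11 core genes had means from 16.96 (PSMA4) to 112 (PSMA7) over the 6 libraries, whereas PSMA1 had 6.12 ± 0.46, PSMB10 1.65 ± 0.30, PSMA6 1.26 ± 0.09 and PSMA2 0.31 ± 0.05 (SD, n = 6). PSMA1, PSMA2 and PSMA6 are alpha subunits that each 20S core contains. These 4 genes share 88.6%, 58.3%, 70.4% and 97.1% of their coding bases with another gene annotated on the same strand, and the other tested core genes share 0%. PSMA6 was the lowest core gene in fold change, with 8.82, 8.46 and 9.16 CPM in Vector-CM and 7.44, 7.78 and 7.77 in FGFBP1-CM. Every FGFBP1-CM library was lower (log2 fold change -0.20 ± 0.12, SE, adjusted p = 0.333). PSMA2 had 3.02, 1.88 and 2.96 CPM in Vector-CM and 2.27, 2.57 and 2.81 in FGFBP1-CM, within the range of Vector-CM (log2 fold change -0.06 ± 0.22, SE, and 0.03 without FGFBP1-CM replicate 1). The neighbours themselves held few reads, with 0 (AC018523.2, at PSMA1), 56 (AC040162.1, at PSMB10), 10 (AL121594.1, at PSMA6) and 1 (AC010132.3, at PSMA2) counts over the 6 libraries.

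The chaperone PSMD9 shares 58.7% of its coding bases with AC069503.2 and WDR66 and had 2.24 ± 0.28 FPKM (SD, n = 6). How the counting treated reads that fit 2 genes is not given in the sources used here, and its part in these levels was not tested. The levels and fold changes of these 5 genes are therefore uncertain. Over the 37 tested genes with no coding base shared on the same strand, the median log2 fold change was 0.13. At an unadjusted p under 0.05, 12 were higher (32.4%, against 11.1% of all genes tested) and 1 was lower (against 10.7%).

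**Figure D5:**
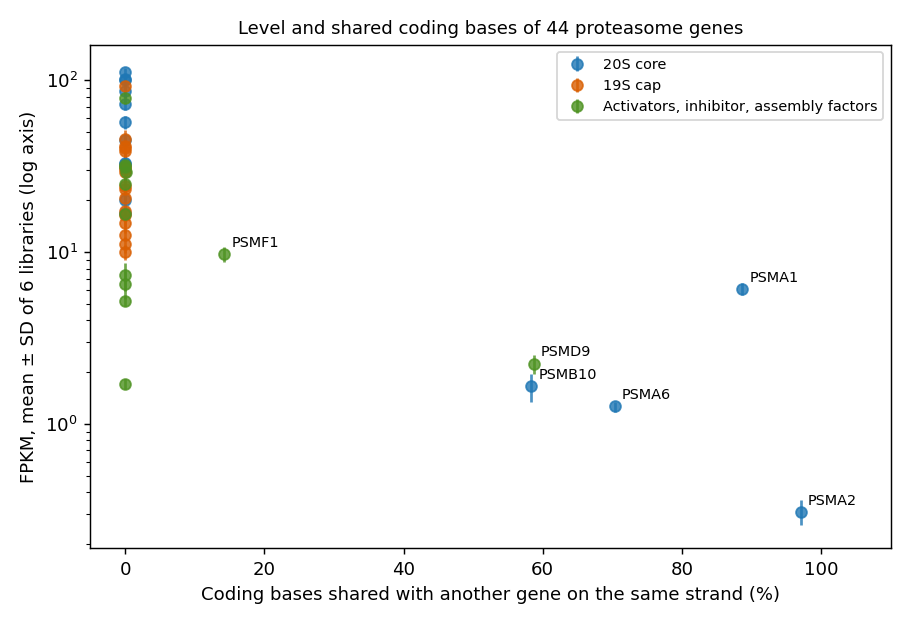
Mean FPKM ± SD of the 6 libraries (y axis, log scale) against the percent of a gene's coding bases that another gene on the same strand shares (x axis), for the 44 tested genes in the colours of the 3 classes. The 5 genes above 50% shared lie at 6.12 FPKM or less, and all core and cap genes at 0% lie at 10.0 FPKM or more. Accessory genes at 0% reach down to 1.71 FPKM (PSMG4), under the 2.24 FPKM of PSMD9, 1 of the 5.

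Cap genes ranged from 10.0 (PSMC1) to 92.7 FPKM (PSMD2), and accessory genes from 1.71 (PSMG4) to 78.8 FPKM (PSME1). The gene lengths in the file run from 1168 bases (PSMB3) to 15795 bases (PSMD1), so that levels between genes depend on the gene models used. Rows of pseudogenes numbered 42, of which 16 had 0 counts and 4 had over 100 counts. Of these 4, the largest against their parent genes were PSMA6P1 (234 counts, 29.1% of PSMA6) and PSMC1P1 (538 counts, 8.93% of PSMC1), and reads could be split between such copies.

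Other genes of the pathway were taken from lists of 35 genes, and all were tested. None passed an adjusted p of 0.05 in edgeR, and 0 passed in DESeq2 or limma. With no filter on low counts, FAF2 and NFE2L3 passed in edgeR, where 3.64% of all genes passed. NFE2L3 also passed without FGFBP1-CM replicate 2, where 5.15% of all genes passed. At an unadjusted p under 0.05, 4 were higher (11.4%, close to the 11.1% of all genes tested) and 2 lower (against 10.7%). The median log2 fold change was 0.06. The 4 higher were POMP, the chaperone that matures the beta ring (0.16 ± 0.07, SE), UCHL5, a deubiquitinase of the cap (0.21 ± 0.07), ECPAS, a scaffold bound to the cap (0.14 ± 0.07), and FAF2, a cofactor of the p97 segregase (0.25 ± 0.10). Without FGFBP1-CM replicate 1, UCHL5 was at 0.21, FAF2 at 0.11, POMP at 0.09 and ECPAS at 0.09, and of the 4 only UCHL5 was at an unadjusted p under 0.05 in edgeR. Of the cap subunits without a PSM symbol, ADRM1 (Rpn13) was at 0.15 ± 0.10 (SE) and at 0.0080 without that library, and SEM1 was at 0.08 ± 0.07 and 0.10.

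Of the transcription factors that act on proteasome genes, NFE2L1 and NFE2L3 were lower at an unadjusted p under 0.05. NFE2L1 had 379 ± 16.6 CPM in Vector-CM and 344 ± 15.9 in FGFBP1-CM (SD, n = 3 each), which is -0.14 ± 0.06 on the log2 scale (SE, adjusted p = 0.224 in edgeR). NFE2L3 was at -0.29 ± 0.10 (SE, adjusted p = 0.132). Without FGFBP1-CM replicate 1, NFE2L1 was at -0.12 and NFE2L3 at -0.20, and only NFE2L3 was at an unadjusted p under 0.05 in edgeR. NFE2L2 was at 0.07 ± 0.08 (SE, adjusted p = 0.644). These are RNA levels, and NFE2L1 is regulated largely at the protein level. The ubiquitin gene UBB was at 0.06 ± 0.07 on the log2 scale (SE, adjusted p = 0.673), and at 0.0020 without FGFBP1-CM replicate 1.

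Calls on single genes depended on the test. DESeq2 passed PSMA3 and PSMD12, where it passed 3.69% of all genes. With no filter on low counts edgeR passed 7 genes, PSMA3, PSMC2, PSMC4, PSMC6, PSMD12, PSME3 and PSMG1. These are 15.6% of the 45, where it passed 3.64% of 38002 genes. The 38002 include genes with too few counts for the main test, so the 2 shares are not alike. All of these were higher in FGFBP1-CM. Leaving out 1 library gave 3 such genes without FGFBP1-CM replicate 2 (PSMA3, PSMC4 and PSMD12; 6.82%, against 5.15% of all genes), 1 without FGFBP1-CM replicate 3 (PSMD12; 2.27%, against 2.34%) and 0 without any of the other 4. DESeq2 passed 4.55% of the 44 genes, so that in these 3 settings the share of proteasome genes that passed was near that of all genes.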

How the data were processed

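Total RNA of 6 LX-2 samples was sequenced (n = 3 per group). Read pairs were aligned by the authors in HISAT2 (2.0.5 in the submitters' processing notes), who deposited featureCounts (1.5.0-p3) counts per gene. The authors also deposited FPKM, which implied one gene length in all libraries for 38002 of 38002 genes (tolerance 0.1%). The notes name genome build hg18, the identifiers are Ensembl, and 96.3% of them are in GENCODE release 29 (GRCh38), whose coordinates are given. Strand and the handling of shared reads are not given in the sources used here. The methods name poly(A) selection as well as depletion of ribosomal RNA.

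Counts were tested with edgeR 4.0.16 in R 4.3.3 (filterByExpr, TMM, quasi-likelihood F-test, Benjamini-Hochberg over 16707 genes, threshold 0.05). Levels are TMM-scaled CPM, with 3 counts as the floor (0.162 to 0.214 CPM), which covers counting error only. The standard error is the log2 fold change divided by the square root of F. DESeq2 1.42.0 and limma 3.58.1 on log2(FPKM + 1) and log2(FPKM + 0.1) were alternatives. Members, lists and tests were chosen with earlier results of these data known. Values in every library were printed for the 4 catalytic subunits and, per class, the 3 highest and 3 lowest members with at least 1 CPM. PSMD14, PSMD4, PSMG2, UCHL5, ECPAS, FAF2 and NFE2L3 were added after their values were seen. A gene of the pathway lists is not reported here. On simulated data (5 draws, 200 of 16707 genes changed 2-fold), edgeR recovered 81.5% of changed genes with 5.66% false calls. The highest fold change of a proteasome gene was 1.32 (PSMD12). Recovery of changes that small was not simulated, so the 81.5% does not apply to them.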

Additional observations from a re-analysis of the deposited data

How the results depend on the processing

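No proteasome gene passed the adjusted threshold with RLE scaling, with library size only, with a mean of at least 1 CPM, in limma on either FPKM scale, with a replicate block or with the GC and length correction, and 7 passed with no filter on low counts and 2 under DESeq2. Leaving out 1 library gave 0 to 3 such genes, highest without FGFBP1-CM replicate 2. Of 44 genes, 13 were at an unadjusted p under 0.05 (29.5%, against 21.7% of all genes), against 6 in limma on log2(FPKM + 0.1) (13.6%, against 16.9%) and 6 to 17 when 1 library was left out, with 6 without FGFBP1-CM replicate 1 (13.6%, against 14.6%) and 7 without Vector-CM replicate 1 (15.9%, against 16.8%), so that in these 3 settings the share was below that of all genes. Those higher at that p were 6 in each of the 3 (13.6%), against 10.7%, 7.73% and 9.21% of all genes. Libraries that share a replicate number did not deviate together (correlations -0.09, -0.03 and 0.11). With 3 libraries per group, this check cannot show whether the numbers pair cultures or batches of medium. A replicate block left these 13 at 13 and the class medians at 0.06, 0.15 and 0.05, with 90 genes of the table passing in place of 20. All 3 class medians were above 0 in every alternative. The lowest class medians over the alternatives were 0.0262 for the core, 0.0858 for the cap and 0.0138 for the accessory genes. Counting PSMD5, PSMD9 and PSMD10 with the cap, or only genes of at least 10 CPM, moved each class median by less than its spread between replicates (0.02 in place of 0.05 for the accessory genes in the first case). Some fold changes near 0 turned. PSMD7 was at 0.0222 with library size only, 0.0006 with no filter, and 0.0207 and 0.0215 in limma on log2(FPKM + 1) and log2(FPKM + 0.1) and in the same settings PSMD8 was at 0.0302, 0.0079, 0.0272 and 0.0278. In the same order of settings, the median over all genes tested was 0.0371, 0.0178, 0.0236 and 0.0354. PSMD8 was at 0.0096 with the GC and length correction and 0.0099 with the block added, and PSMA2 was at 0.0001 and 0.0112 in limma. With 1 library left out, log2 fold changes ran from -0.2331 to 0.0651 for PSMA2, -0.3839 to 0.0052 for PSMB10, -0.0287 to 0.0654 for PSMB6, -0.0343 to 0.0059 for PSMD7, -0.0445 to 0.0243 for PSMD8 and -0.0169 to 0.1248 for NFE2L2. The cause of these changes was not tested. Standard errors of the 44 genes were 0.06 to 0.22 on the log2 scale.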
